A study of Homo sapiens with 60 samples.

Results

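The genes of oxidative phosphorylation were taken as all protein-coding genes whose symbols mark subunits or complex I assembly factors of the respiratory chain and ATP synthase. They were chosen by symbol: beginning with NDUFA, NDUFB, NDUFC, NDUFS, NDUFV, UQCR, COX4, COX5, COX6, COX7, COX8, ATP5, or MT-, or equal to SDHA, SDHB, SDHC, SDHD, or CYC1. This gave 112 of 20042 protein-coding genes and of 62703 genes in all, with 99 encoded in the nucleus and 13 in mitochondrial DNA (MT- genes). RNA was taken from 1321N1, a human cell line derived from an astrocytoma, grown in DMEM with serum. Cells were exposed to 2.55 µM arsenic (sodium metaarsenite), 2.3 µM cadmium (cadmium chloride), or 20 µM mercury (mercury chloride), or left non-treated, and lysed after 1.5, 3, 6, 12, or 24 h. There were 3 libraries in each of 20 groups, or 60 libraries. The doses were chosen by the study to kill a like share of the cells, only this line was sequenced, and the labels call the replicates technical, so that p-values may measure only technical spread. The comparisons ask which genes of the chain differ in RNA level from time-matched non-treated cells, and whether nuclear and MT- genes differ alike.

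Oxidative phosphorylation couples the oxidation of NADH and succinate to ATP synthesis at the inner mitochondrial membrane. Complex I (NADH dehydrogenase) and complex II (succinate dehydrogenase) pass electrons to coenzyme Q, complex III passes them to cytochrome c, and complex IV (cytochrome c oxidase) passes them to oxygen. The proton gradient built by complexes I, III, and IV drives complex V, the ATP synthase. Complex II is encoded in the nucleus alone, whereas the other complexes combine nuclear subunits with subunits made inside the mitochondrion. The MT- genes are transcribed as long precursors from both strands of the mitochondrial genome, and MT-ND6 is the only protein-coding gene on the light strand. In astrocytes, which also rely on glycolysis, the chain supplies part of the ATP and is a source of reactive oxygen species.

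By role, the members held 31 accessory subunits, 14 core subunits, and 8 assembly factors of complex I, 4 subunits of complex II, 11 of complex III, 22 of complex IV, and 22 of complex V. Of these, 100 had enough counts for testing, 87 nuclear and all 13 MT- genes, among 12341 genes tested. The 12 members not tested were COX4I2, COX6A2, COX6B2, COX7A1, COX8C, NDUFA4L2, NDUFA7, NDUFV2, NDUFC2-KCTD14, ATP5MC3, ATP5MF-PTCD1, and ATP5MGL, each with a mean of at most 1.35 CPM (read counts scaled to a common normalized library size). The tissue-restricted isoforms COX4I2, COX6A2, and COX7A1 had 0 counts in all 60 libraries, while COX4I1 had 349, 364, and 374 CPM in the non-treated libraries at 24 h. For some of the others the counting bears on the zero: reads over exons of more than 1 gene were left out by the authors, and of the last 400 exonic bases, 68% of NDUFA7, 87.8% of NDUFV2, and 100% of NDUFC2-KCTD14 and ATP5MF-PTCD1 also lie in exons of another gene on the same strand in GENCODE v44. Values of these genes are therefore uncertain. Among tested members named here, the same overlap covered 52% of NDUFA13, 31.5% of ATP5PO, and 20.2% of COX8A, and 21.1% of the 50-base windows of UQCRH also occur in its copy UQCRHL, so that these values are uncertain too.

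Sequences that the results turn on are shown from GRCh38. MT- genes lie so close together that some share bases, in which a read cannot be assigned by the counting used. MT-ATP8 and MT-ATP6 share 46 bases, and MT-ND4L and MT-ND4 share 7. The shared bases are in capitals, with 10 bases on either side.
MT-ATP8 and MT-ATP6, chrM:8517-8582, plus strand: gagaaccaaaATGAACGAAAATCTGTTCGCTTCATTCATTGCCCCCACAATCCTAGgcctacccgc
MT-ND4L and MT-ND4, chrM:10750-10776, plus strand: acctactccaATGCTAAaactaatcgt
MT-ND6 (chrM:14149-14673, minus strand) ends next to the end of MT-ND5 (chrM:12337-14148, plus strand), with no shared base. In the 400 bases at the 3′ end of MT-CO1, 50.7% of windows of 50 bases also occur in another annotated gene, namely nuclear copies of mitochondrial sequence, against 12.8% for MT-ND6 and 0% for MT-ND4L.

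Promoter windows are shown for 3 nuclear members described below, as listed by RefSeq for GRCh38.p14 (300 bases around the start). Capitals mark the letters searched on both strands for factors known to bind promoters of respiratory genes: GCGCA, any base, and GCGC in a row for NRF1, CCGGAAG for ETS factors such as GABPA, and AAGATGGCG for YY1. SDHA held 4 NRF1 matches, UQCRC1 held 1 NRF1 and 1 YY1 match, and ATP5PF held 1 ETS and 1 YY1 match.
SDHA, chr5:218070-218369, plus strand: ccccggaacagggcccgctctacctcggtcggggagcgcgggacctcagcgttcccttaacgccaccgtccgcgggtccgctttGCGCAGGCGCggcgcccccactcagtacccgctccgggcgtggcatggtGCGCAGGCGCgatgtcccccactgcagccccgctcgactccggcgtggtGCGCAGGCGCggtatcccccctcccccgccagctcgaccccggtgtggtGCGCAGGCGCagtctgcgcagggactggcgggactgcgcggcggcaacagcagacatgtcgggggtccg
UQCRC1, chr3:48609597-48609896, minus strand: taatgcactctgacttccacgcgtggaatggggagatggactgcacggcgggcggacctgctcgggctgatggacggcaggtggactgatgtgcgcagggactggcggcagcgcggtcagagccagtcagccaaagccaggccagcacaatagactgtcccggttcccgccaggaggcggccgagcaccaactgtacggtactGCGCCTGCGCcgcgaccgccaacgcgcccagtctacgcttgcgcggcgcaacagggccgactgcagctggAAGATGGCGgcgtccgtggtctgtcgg
ATP5PF, chr21:25735005-25735304, minus strand: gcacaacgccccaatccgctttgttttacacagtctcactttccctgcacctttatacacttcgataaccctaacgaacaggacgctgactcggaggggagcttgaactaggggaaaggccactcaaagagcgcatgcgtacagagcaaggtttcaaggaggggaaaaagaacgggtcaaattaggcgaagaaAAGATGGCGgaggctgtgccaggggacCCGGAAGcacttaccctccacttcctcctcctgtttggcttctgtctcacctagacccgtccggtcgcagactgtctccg
Of the 78 nuclear members with a window, 23.1% held the NRF1 letters, against 12.7% of 9446 windows of tested genes and 6.28% of all 27305 windows. The share was 26.9% for the ETS letters (20.7% of tested genes, 10.7% of all) and 10.3% for YY1 (4.35% and 1.85%). Among the 20 windows of members lower after 24 h of mercury, 5 held the NRF1, 4 the ETS, and 2 the YY1 letters. These matches describe letters in a window and not binding.

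Library totals ran from 2215276 to 4404609 reads on genes, with a median of 3291417. The cell line carried VIM (mean 4410 CPM), CD44 (386 CPM), SOX9 (77.1 CPM), and GJA1 (21.2 CPM), whereas the defining astrocyte markers GFAP, S100B, AQP4, and ALDH1L1 were at or near 0. The defining markers of microglia and blood, oligodendrocytes, and endothelium (PTPRC, AIF1, MBP, PECAM1) were at or near 0 as well, as were the neuron markers RBFOX3 and TUBB3. Of the marker lists for other cells, 0 of 7 microglia and blood and 0 of 7 oligodendrocyte genes had enough counts for testing. The neuron list had 2 of 7 (SYT1 at a mean of 11.4 and GAD1 at 10.6 CPM) and the endothelial and epithelial list 2 of 7 (the keratins KRT18 at 58.4 and KRT8 at 9.62 CPM).

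The 13 MT- genes took a median of 4.22% of counted reads per library (range 0.773% to 5.95%), and the 99 nuclear members together took 1.44% (1.28% to 1.79%). MT-ATP6, an ATP synthase subunit, had the most reads of all members at a mean of 6399 CPM, and MT-ND6 the fewest of the MT- genes at 482 CPM. In 3′ sequencing reads are not meant to grow with transcript length, so these levels carry no length correction. How far reads at the annotated ends of the MT- genes follow RNA amount was not tested. Their levels are therefore counts of reads and give no ranking of RNA amounts. A pair of libraries stood apart by their MT- share. Arsenic 3 h replicate 2, also the library with the fewest counts, had an MT- share of 1.22%, and cadmium 6 h replicate 1 had 0.773%. The remaining 58 libraries lay between 2.68% and 5.95%. Mitochondrial rRNA was low in the same libraries, at 0.682% and 0.569% against a median of 1.71% over all 60, while their nuclear members took 1.58% and 1.42%. The part of library quality in this was not tested.

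**Figure D1:**
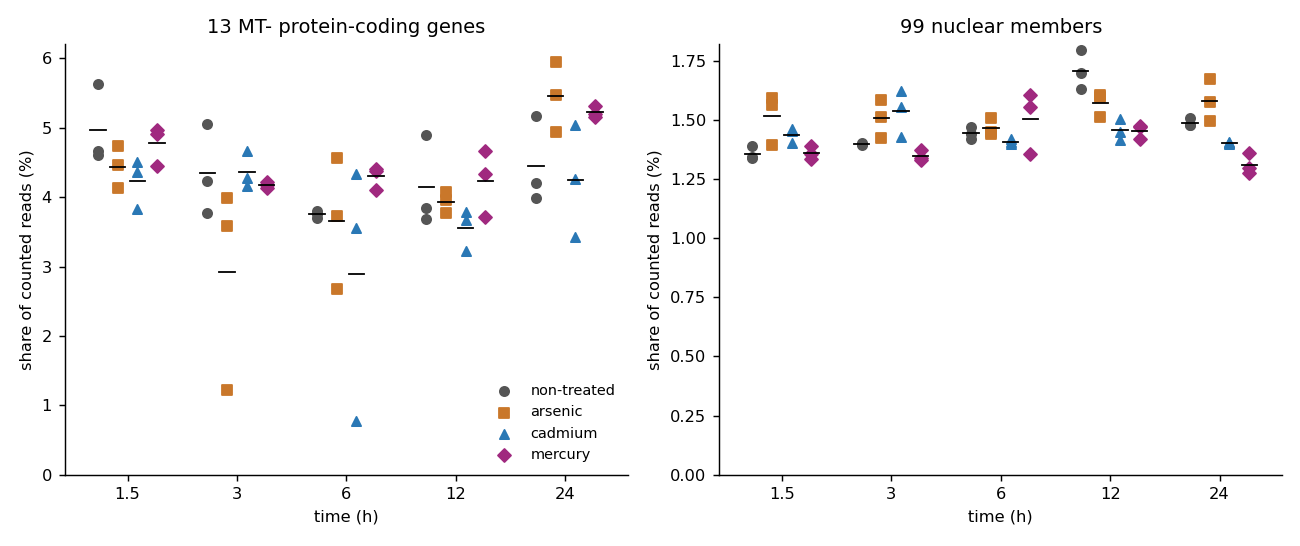
Share of counted reads (%, y axis) taken by the MT- genes (left) and the nuclear members (right) in each library against time (h, x axis); points are libraries, black lines are group means of 3 libraries. Arsenic 3 h replicate 2 (1.22%) and cadmium 6 h replicate 1 (0.773%) lie below all other libraries on the left, and the non-treated 12 h libraries (1.63% to 1.79%) stand above the other non-treated libraries on the right.

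After 24 h of mercury, nuclear members of complexes I, III, and V were mostly lower among those that passed the test, some of complex IV were higher, and the MT- genes had a median above 0. Of 87 nuclear members, 24 were lower and 5 higher at an adjusted p under 0.05 (edgeR quasi-likelihood test, Benjamini-Hochberg over all genes tested). Over all genes, 13.9% were lower and 13.9% higher in this comparison. Nuclear members lower numbered 15 without non-treated 24 h replicate 1, and those higher 3 without mercury 24 h replicate 1 or non-treated 24 h replicate 2. The median log2 fold change (LFC, given for single genes with its standard error, SE) of the nuclear members was -0.13, and that of all genes tested was -0.02. The nuclear members took 1.31% ± 0.0442 of reads (SD, n = 3) with mercury and 1.49% ± 0.0179 (SD, n = 3) in non-treated cells, with no overlap between the libraries. The 82 ribosomal protein genes moved with this, at 10.2% to 10.9% of reads with mercury and 11.1% to 11.9% without, again with no overlap. In the shortest quartile of tested genes by transcript length, which holds 67 of the 87 nuclear members, the median LFC was -0.10 and 16% were lower against 10.5% higher, while the share of reads of the other short genes overlapped (23.4% to 23.5% and 23.4% to 23.7%). The part of transcript length in the result was not tested. Among cell markers, KRT18 was higher (LFC 0.73) and KRT8 (-1.14) and NES (-1.62) lower with mercury. The summed level of the astrocyte list was 3905 to 4372 CPM with mercury and 3932 to 4767 CPM without, and that of the endothelial and epithelial list 88.3 to 97.1 and 62.1 to 65.2 CPM. Whether these marker changes have a part in the result was not tested. Of the nuclear members, 0 passed the test with an LFC above 1 or below -1, against 7.46% of all genes. The non-treated libraries serve as controls for all 3 metals, so the comparisons are not independent of each other.

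UQCRC1, a core subunit of complex III, had 128, 123, and 122 CPM in the non-treated and 64.8, 80.3, and 79 CPM in the mercury libraries at 24 h. All mercury libraries lay below all non-treated libraries. The LFC was -0.74 (SE 0.12, adjusted p = 6.67e-07). Of the 10 tested nuclear members of complex III, 5 were lower and 1 higher (13.9% of all genes lower, 13.9% higher). Lower were also UQCRQ (-0.49), CYC1 (-0.45), which is cytochrome c1, the Rieske iron-sulfur protein UQCRFS1 (-0.37), and UQCRB (-0.22), given as LFC. UQCRH, the hinge subunit, was higher at 0.23 (adjusted p = 0.0327). The calls of CYC1, UQCRB, and UQCRH were each lost without some libraries. The highest edgeR adjusted p was 0.121 for CYC1 without mercury replicate 1, 0.215 for UQCRB without replicate 2, and 0.117 for UQCRH without replicate 3. The call of UQCRFS1 was not checked by leaving out libraries.

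In complex I, 6 of 29 tested nuclear accessory subunits, 2 of 6 nuclear core subunits, and 2 of 8 assembly factors were lower after 24 h of mercury, and none higher. Over all genes 13.9% were lower and 13.9% higher, and these small counts were not tested against that share. NDUFB10, an accessory subunit of the membrane arm, had 160.2, 157, and 143 CPM in non-treated cells and 95, 70.7, and 112 CPM with mercury. The mercury libraries did not overlap the non-treated ones, and the LFC was -0.73 (SE 0.13, adjusted p = 1.41e-05). NDUFAF8, an assembly factor, had 244, 245, and 235 CPM without and 143, 163, and 154 CPM with mercury. Again no library overlapped, with an LFC of -0.65 (SE 0.11, adjusted p = 1.06e-06). The assembly factor NDUFAF3 fell by 0.78 and the accessory subunit NDUFA2 by 0.66 on the log2 scale. The core subunit NDUFS8, which lies along the electron path to coenzyme Q, had an LFC of -0.41. NDUFS8 lost its call without mercury replicate 1 or 2 or non-treated replicate 1 or 2 (adjusted p up to 0.157).

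SDHA, the flavoprotein of complex II that oxidizes succinate, was the sole member of its complex that passed. It had 68, 79.9, and 50.5 CPM in non-treated cells, 44.1, 30.1, and 37.7 CPM with mercury, and 39.8, 37.3, and 44.5 CPM with arsenic at 24 h. The libraries of both metals lay below the lowest non-treated library. The LFC was -0.83 (SE 0.16, adjusted p = 2.89e-05) with mercury and -0.70 (SE 0.16, adjusted p = 0.000631) with arsenic. With cadmium, SDHA had 45.5, 42.1, and 57.1 CPM, which overlapped the non-treated libraries, and an LFC of -0.46 (adjusted p = 0.103). The iron-sulfur subunit SDHB and the membrane anchor SDHC did not pass with any metal at 24 h. The other anchor, SDHD, had 4.64, 5.23, and 19 CPM without and 22.7, 18.3, and 11.2 CPM with mercury, a low level with wide spread, and an LFC of 0.86 (adjusted p = 0.131).

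Complex IV was the complex with the most members higher at 24 h of mercury, 4 of 13 tested nuclear members, with 2 lower (13.9% of all genes higher, 13.9% lower). COX7A2L, which holds complexes III and IV together in supercomplexes, had 78.3, 86.4, and 121 CPM in non-treated cells and 159.9, 166, and 134 CPM with mercury. Every mercury library lay above every non-treated one, with an LFC of 0.69 (SE 0.13, adjusted p = 2.18e-05). NDUFA4, counted with complex IV although it is named for complex I, had 198, 176, and 213 CPM without and 264, 279.5, and 246 CPM with mercury. The groups did not overlap, and the LFC was 0.43 (SE 0.11, adjusted p = 0.00132). COX6C and COX7B had LFC of 0.32 and 0.31, whereas COX6B1 (-0.50) and COX8A (-0.36) were lower. The call of COX8A was not checked by leaving out libraries. Of the isoform pairs, COX7A2 did not pass (LFC -0.10). Without mercury replicate 1 the calls of COX6C, COX7B, and COX6B1 were lost (adjusted p = 0.0552, 0.199, and 0.0619). Those of COX6C and COX7B were also lost without non-treated replicate 2 (0.0634 and 0.295), and that of COX6B1 without mercury replicate 2 (0.0688) or non-treated replicate 1 (0.0629).

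In complex V, 6 of 17 tested nuclear members were lower with mercury at 24 h and none higher (13.9% of all genes lower, 13.9% higher). ATP5MC1 and ATP5MC2, which encode the same c-ring subunit, had LFC of -0.74 (SE 0.14, adjusted p = 3.06e-05) and -0.54 (SE 0.13, adjusted p = 0.000793). ATP5F1D of the central stalk had -0.63, the catalytic-head subunit ATP5F1A -0.43, ATP5ME -0.42, and ATP5IF1, the inhibitor of the synthase, -0.42. The call of ATP5ME was not checked by leaving out libraries. ATP5F1D and ATP5IF1 lost their calls without mercury replicate 1 (adjusted p = 0.0569 and 0.055) or non-treated replicate 1 (0.0623 and 0.0549), and ATP5IF1 also without mercury replicate 2 (0.0744).

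**Figure D2:**
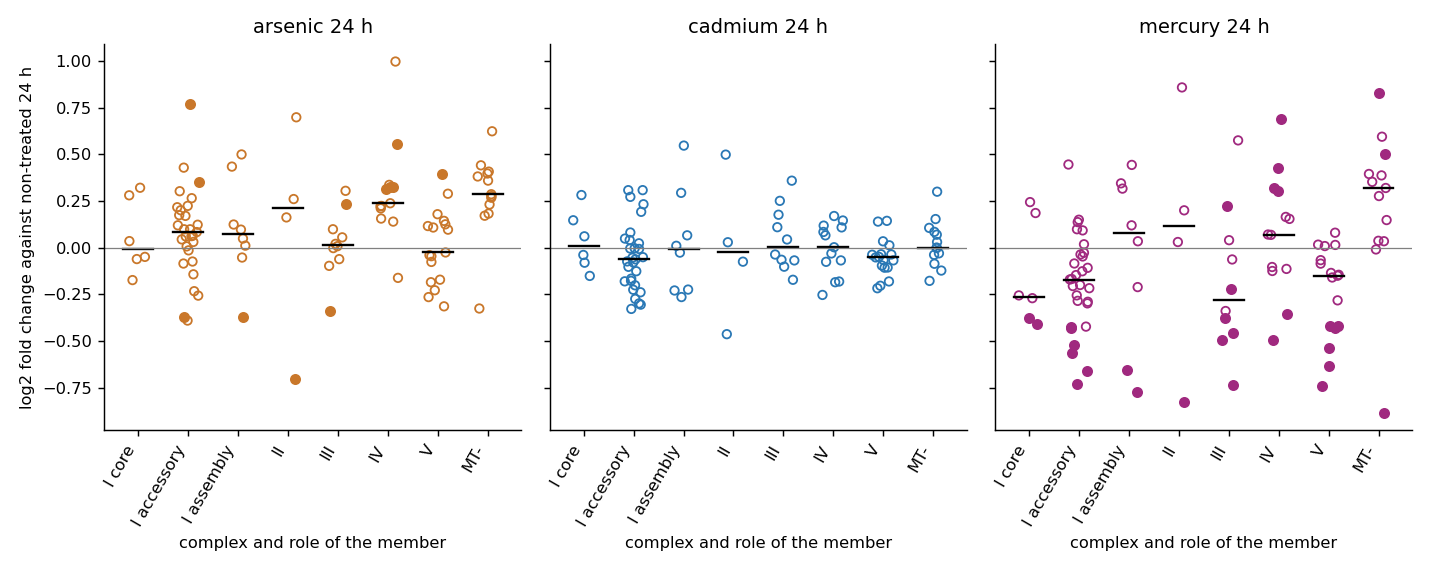
LFC (log2, y axis) against the non-treated 24 h libraries for each tested member by complex and role (x axis), for arsenic, cadmium, and mercury; filled points have an adjusted p under 0.05 and black lines are medians. With mercury 24 nuclear members passed below 0 and 5 above, with arsenic 4 below and 8 above, and with cadmium 0. Over all genes 13.9% passed below 0 and 13.9% above with mercury, 7.75% and 6.54% with arsenic, and 2.19% in either direction with cadmium.

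The MT- genes were described apart from the nuclear members at 24 h of mercury, and the difference between the gene groups was not tested. Their median LFC was 0.32 (nuclear -0.13), 11 of 13 were above 0, and 3 passed the test (27.8% of all genes passed in either direction). MT-CO1, the catalytic subunit of complex IV, had 783, 743, and 802 CPM in non-treated cells and 1412, 1302, and 1426 CPM with mercury. All mercury libraries were above all non-treated ones, with an LFC of 0.83 (SE 0.21, adjusted p = 0.00147). MT-ND4L, a small core subunit of complex I, had 513, 507, and 576 CPM without and 737, 793, and 732 CPM with mercury, again without overlap, and an LFC of 0.50 (SE 0.18, adjusted p = 0.0261). MT-ND6, the light-strand gene, moved the other way. MT-ND4, which shares 7 bases with MT-ND4L, did not pass. From which mitochondrial RNAs the reads of MT-CO1, MT-ND4L, and MT-ND6 came was not tested. Their calls may therefore not be changes of 3 separate RNAs. Without mercury 24 h replicate 2 or non-treated 24 h replicate 2, 1 MT- gene passed. edgeR called 9 MT- genes without a filter on low counts and 9 with only the 6 libraries compared. The share of all genes called in those fits was not recorded. In the main fit the spread of each gene came from all 60 libraries, including those with a low MT- share. The part of those libraries in the number of MT- genes called was not tested.

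MT-ND6 had 394, 434, and 418 CPM in non-treated cells and 192, 229.6, and 254 CPM after 24 h of mercury. Each mercury library lay below each non-treated one, and the LFC was -0.88 (SE 0.31, adjusted p = 0.0255). MT-ND6 lost its call with DESeq2 (adjusted p = 0.0747), without mercury 24 h replicate 1 or 2 (edgeR adjusted p = 0.107 and 0.0654), and without non-treated 24 h replicate 2 or 3 (0.0648 and 0.0503). MT-ND4L lost its call without mercury 24 h replicate 2 (0.0769) and non-treated 24 h replicate 1 or 2 (0.0796 and 0.0835). At 12 h the values were 479.6, 551, and 418 CPM without and 252, 381, and 314 CPM with mercury, an LFC of -0.61 (adjusted p = 0.179). Compared directly, MT-ND6 was higher with cadmium than with mercury at 12 h, by an LFC of 1.06 (SE 0.31, adjusted p = 0.0363), and at 24 h, by 1.04 (SE 0.31, adjusted p = 0.0111). These direct comparisons were not checked by leaving out libraries or with DESeq2. The MT- share of reads at 24 h was 5.23% ± 0.0764 (SD, n = 3) with mercury, 5.45% ± 0.504 (SD, n = 3) with arsenic, 4.24% ± 0.808 (SD, n = 3) with cadmium, and 4.45% ± 0.63 (SD, n = 3) in non-treated cells. The highest non-treated library, at 5.17%, reached into the range of the arsenic and mercury libraries, and the cadmium libraries overlapped the non-treated ones.

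**Figure D3:**
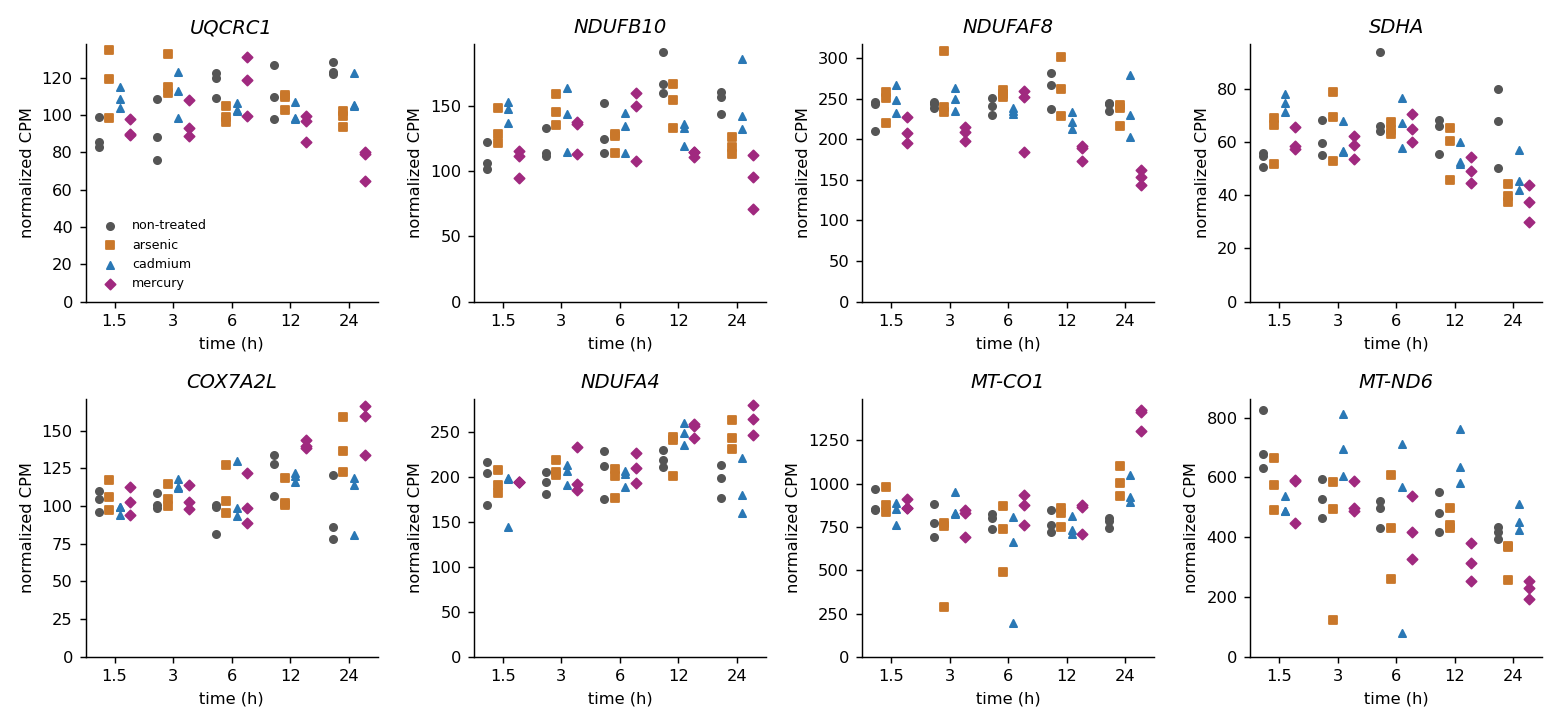
Normalized CPM (y axis, from 0) of 8 members in every library against time (h, x axis); each point is a library. At 24 h, UQCRC1, NDUFB10, NDUFAF8, and SDHA were lower with mercury than in every non-treated library, COX7A2L, NDUFA4, and MT-CO1 were higher, and MT-ND6 was lower.

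Arsenic at 24 h gave 8 nuclear members higher and 4 lower out of 87, with 6.54% of all genes higher and 7.75% lower. Both counts lay near those shares and were not tested against them. The median LFC of the nuclear members was 0.10. The other genes of the shortest quartile by transcript length took 23.7% to 24.7% of reads with arsenic and 23.4% to 23.7% without, with overlap. The part of transcript length in the result was not tested. Complex IV held 4 of the rises and none of the falls. COX7A2L had 137, 159, and 122 CPM, all above the non-treated libraries, with an LFC of 0.55 (SE 0.13, adjusted p = 0.00145). COX4I1, the ubiquitous isoform of the largest nuclear-encoded subunit of complex IV, had 458, 474, and 419 CPM against 349, 364, and 374 CPM, without overlap, and an LFC of 0.31 (SE 0.08, adjusted p = 0.00526). NDUFA4 and COX6C had LFC of 0.33 and 0.33. The other rises were ATP5PF of the peripheral stalk (0.40), NDUFB6 (0.77), NDUFB2 (0.35), and UQCRH (0.23). Lower besides SDHA were NDUFAF3 (-0.37), NDUFB10 (-0.37), and UQCRC1 (-0.34). With edgeR, 0 of 13 MT- genes passed with arsenic (2 at an unadjusted p under 0.05, 14.3% of all genes passed), and DESeq2 called 0 as well. Of the MT- genes, 12 had an LFC above 0, with a median of 0.29. edgeR called 10 without a filter on low counts and 7 with only the 6 libraries compared. The share of all genes called in those fits was not recorded. In the main fit the spread of each gene came from all 60 libraries, including those with a low MT- share. The part of those libraries in the 0 was not tested. The counts rested on single libraries: nuclear members lower were 1 or 2 whichever library was left out, and those higher were 2 without arsenic replicate 1 or non-treated replicate 2 and 4 without arsenic replicate 2 or non-treated replicate 1. The call of NDUFB2 was not checked by leaving out libraries. The calls of COX7A2L, COX4I1, and SDHA held without each library in turn. Those of NDUFA4, COX6C, ATP5PF, NDUFB6, UQCRH, NDUFAF3, NDUFB10, and UQCRC1 were each lost without at least 1 library, with highest adjusted p from 0.0806 (ATP5PF) to 0.233 (NDUFB6). Markers of the cells moved in the same comparison: SOX9 (LFC -0.98) and CD44 (-0.46) were lower with arsenic, 2 of the 5 astrocyte markers tested. The summed level of the astrocyte list was 3375 to 3573 CPM with arsenic and 3932 to 4767 CPM without. The part of this in the result was not tested.

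Cadmium at 24 h left the members without a call. With edgeR 0 of 87 nuclear members passed in either direction (5 at an unadjusted p under 0.05), 0 of 13 MT- genes passed (0 at an unadjusted p under 0.05), and DESeq2 gave 0 in each case too. Over all genes 2.19% passed. The median LFC was -0.04 for nuclear members and 0.00 for MT- genes.

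The metals were also compared directly at 24 h, in the main edgeR fit only, without checks by leaving out libraries or with DESeq2. With arsenic 21 of 87 nuclear members were higher than with mercury and 0 lower (4.59% of all genes higher, 6.78% lower). NDUFAF8 differed by an LFC of 0.60 (SE 0.11, adjusted p = 2.16e-05) and NDUFA2 by 0.65 (SE 0.15, adjusted p = 0.0011). The shortest quartile of tested genes holds 67 of the 87 nuclear members. Its other short genes took 23.7% to 24.7% of reads with arsenic and 23.4% to 23.5% with mercury. Ribosomal protein genes took 10.99% to 11.28% and 10.21% to 10.91%. Neither pair of ranges overlapped. The part of transcript length in these counts was not tested. With cadmium 17 nuclear members were higher than with mercury and 4 lower (9.7% of all genes higher, 10.3% lower). NDUFB10 was higher by 0.73 (SE 0.13, adjusted p = 3.15e-05), and the 4 lower were COX7A2L (-0.55), NDUFA4 (-0.49), COX6C (-0.40), and NDUFB9 (-0.24). Between arsenic and cadmium, 10 nuclear members differed, all higher with arsenic (4.2% of all genes higher, 5.96% lower). Among them was COX7B2, an isoform of COX7B, with 24.1, 16.8, and 13.3 CPM with arsenic and 7.95, 11.5, and 2.52 CPM with cadmium. These groups did not overlap, and the LFC was 1.25 (SE 0.37, adjusted p = 0.0175), at a low level with wide spread.

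At the early time points few members passed. At 1.5 h, NDUFB7, an accessory subunit of complex I, was the only member called, with arsenic (0.0729% of all genes passed in either direction). It had 50.6, 46.4, and 23.5 CPM in non-treated cells and 93.6, 116, and 71.2 CPM with arsenic, without overlap, and an LFC of 1.20 (SE 0.22, adjusted p = 0.011). The non-treated level was itself low at this time: NDUFB7 reached 99.6, 93.9, and 97 CPM in the non-treated libraries at 6 h, an LFC of 1.25 (SE 0.22, adjusted p = 0.000991) relative to 1.5 h. The NDUFB7 call was lost without arsenic 1.5 h replicate 1 or 2 (edgeR adjusted p = 0.073 and 0.489) and without non-treated 1.5 h replicate 3 (0.221). Leaving out arsenic 1.5 h replicate 3 brought the members called to 15. In that library the nuclear members took 1.4% of reads, against 1.56% and 1.59% in the other arsenic libraries.

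With cadmium and mercury at 1.5 h, and with all 3 metals at 3 h, edgeR called 0 members. At an unadjusted p under 0.05, the nuclear members numbered 20 for cadmium and 0 for mercury at 1.5 h, and 13, 27, and 6 for arsenic, cadmium, and mercury at 3 h. Over all genes 0% and 0.567% passed for cadmium and mercury at 1.5 h, and 0.138%, 0.203%, and 1.55% for arsenic, cadmium, and mercury at 3 h. DESeq2 called 3 members with cadmium at 3 h and 0 in the other 4 comparisons. In the edgeR fit, leaving out cadmium 3 h replicate 3 brought the cadmium count from 0 to 10. The MT- genes had a median LFC of -0.45 with arsenic at 3 h, and -0.09 without the library of low MT- share.

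At 6 h, mercury gave 5 nuclear members higher and 1 lower (4.49% of all genes higher, 2.99% lower). NDUFB2, an accessory subunit of complex I, had 174, 152, and 156 CPM in non-treated cells and 263, 289.8, and 189 CPM with mercury, without overlap, and an LFC of 0.62 (SE 0.13, adjusted p = 0.000357). The others were COX6B1, ATP5MK, COX6C, and UQCRH (higher, LFC 0.37 to 0.49) and ATP5PO of the peripheral stalk (lower, -0.33). The calls of NDUFB2, ATP5MK, and ATP5PO were not checked gene by gene by leaving out libraries. Mercury 6 h replicate 3 was the lowest mercury library for each of the 5 that rose, and the call count was 15 without it and 2 without replicate 1. In mercury replicates 1, 2, and 3, nuclear members took 1.6%, 1.55%, and 1.35% of reads. The other genes of the shortest quartile by transcript length took 24.1%, 24.2%, and 23%. In the non-treated 6 h libraries these shares were 1.42% to 1.47% and 23.4% to 23.5%. The part of transcript length in the rises was not tested. COX6B1 lost its call with DESeq2 (adjusted p = 0.0626), without mercury replicate 1 or 2 (edgeR adjusted p = 0.225 and 0.253), and without non-treated replicate 2 or 3 (0.142 and 0.161), and COX6C without mercury replicate 1 (0.144) or non-treated replicate 3 (0.0545). With cadmium at 6 h, NDUFA13 alone passed (-0.66 (adjusted p = 0.0353), 0.446% of all genes lower), and its call was lost without cadmium 6 h replicate 2 or 3 (edgeR adjusted p = 0.0966 and 0.221) and without any of the non-treated libraries (0.0823 to 0.116). Of the last 400 exonic bases of NDUFA13, 52% also lie in exons of another gene, and its value is uncertain. With arsenic at 6 h edgeR called 0 members (5 nuclear members at an unadjusted p under 0.05, 0.916% of all genes passed), as did DESeq2. Between cadmium and mercury at 6 h, 8 nuclear and 4 MT- genes were lower with cadmium (2.14% of all genes), and without cadmium 6 h replicate 1 these were 4 and 0.

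At 12 h the nuclear members that passed were mostly lower than in non-treated cells: 3 with arsenic, 6 with cadmium, and 20 with mercury, where 1, the assembly factor NDUFAF4, was higher (LFC 0.52). Over all genes 1.74%, 2.99%, and 7.16% were lower and 2.37%, 5.19%, and 8.89% higher. UQCR10, a small subunit of complex III, was lower with all 3 metals. It had 182, 147, and 113 CPM in non-treated cells, 105, 102, and 82.3 CPM with arsenic, 77.6, 77.6, and 79.4 CPM with cadmium, and 87.6, 91, and 82.3 CPM with mercury. No treated library reached the lowest non-treated one, and the LFC was -0.61 (adjusted p = 0.0137), -0.91 (adjusted p = 7e-05), and -0.76 (adjusted p = 0.000476). NDUFB1, an accessory subunit of complex I, was also lower with all 3 metals, by LFC of -0.60, -0.54, and -0.84. Its calls were not checked by leaving out libraries. These comparisons share the same 3 non-treated libraries. Without non-treated 12 h replicate 1 the members called fell to 1 for arsenic, 1 for cadmium, and 7 for mercury. Other counts were 0 without arsenic replicate 3, 2 without cadmium replicate 2 or 3, and 12 without mercury replicate 2. UQCR10 lost its arsenic call without arsenic replicate 3 (adjusted p = 0.118) or non-treated replicate 1 (0.237), and NDUFAF4 lost its mercury call without mercury replicate 1 (0.14) or non-treated replicate 1 or 3 (0.202 and 0.0697).

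Those non-treated libraries stood apart. In non-treated cells, 29 of 87 nuclear members were higher at 12 h than at 1.5 h and 0 lower (2.34% of all genes higher, 1.75% lower). UQCR10 had 80.3, 69.4, and 93.5 CPM at 1.5 h, 107, 76.8, and 82.5 CPM at 6 h, and 84.5, 76.9, and 77 CPM at 24 h without metal, all below its 12 h libraries, and the LFC at 12 h relative to 1.5 h was 0.87 (SE 0.17, adjusted p = 0.000696). COX6B1 rose from 216, 189, and 219 to 406, 386, and 287 CPM, an LFC of 0.79 (SE 0.16, adjusted p = 0.00142). The nuclear members took 1.63% to 1.79% of reads in the non-treated 12 h libraries and at most 1.51% in the other non-treated libraries. The 82 ribosomal protein genes moved with this: they took 12% to 12.9% there and 10.2% to 11.9% in the other non-treated libraries. Short transcripts were called higher more often as well, 5.74% in the shortest quartile of tested genes and 0.759% in the longest, and 67 of 87 nuclear members belong to the shortest quartile. The part of transcript length or library preparation in the result was not tested.

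**Figure D4:**
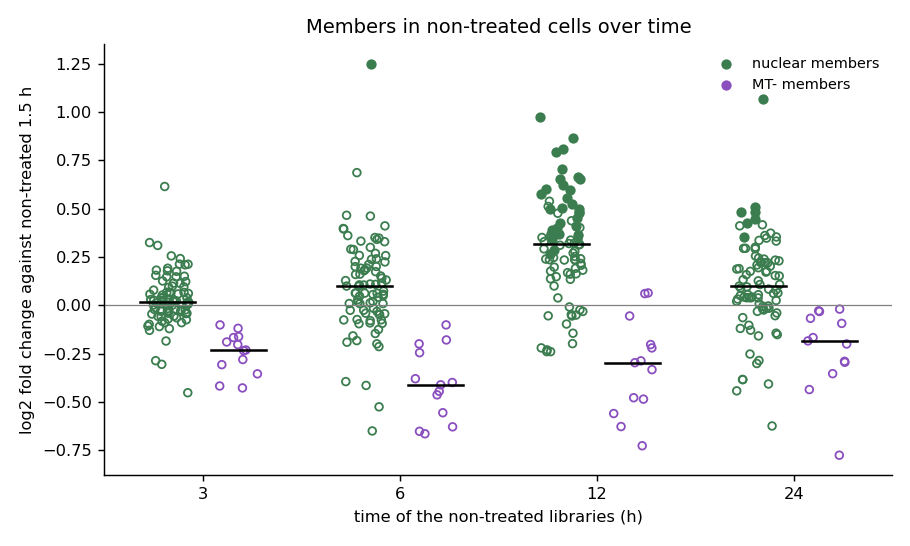
LFC (log2, y axis) of each tested member in non-treated libraries at 3, 6, 12, and 24 h (x axis) relative to 1.5 h; filled points have an adjusted p under 0.05 and black lines are medians. At 12 h the nuclear members have a median of 0.32 with 29 called higher, while the MT- genes have a median of -0.30 with 0 called. Over all genes 2.34% were called higher at 12 h and 4.09% in either direction.

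For the MT- genes in non-treated cells, the median LFC at 12 h was -0.30, and edgeR called 0 of 13 (2 at an unadjusted p under 0.05, 4.09% of all genes passed). The metals at 12 h were also set against the mean of the non-treated 6 h and 24 h libraries, chosen after the values were seen. Arsenic gave 7 nuclear members higher and 0 lower, cadmium 13 and 1, and mercury 10 and 13. Over all genes 8.62%, 16.7%, and 24.4% passed, and 4.31%, 7.47%, and 11.8% were lower. The counts of falls at 12 h thus changed with the control for all 3 metals. With mercury, nuclear members called lower went from 20 to 13, those higher from 1 to 10, and the median LFC was 0.034. This control is not matched in time and holds more libraries. Which control gives the effect of the metal was not tested. UQCR10 had an LFC of 0.051 with mercury against this control, and NDUFA2, NDUFS3, ATP5MC2, and COX6B1 lost their mercury calls (adjusted p 0.0581 to 0.867).

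The change between 12 h and 24 h was tested as the difference of the effects. With arsenic, 3 nuclear members had a higher effect at 24 h (0.673% of all genes) and with cadmium 1 (0.081%). With mercury edgeR called 0 (5 nuclear and 1 MT- gene at an unadjusted p under 0.05, 0.624% of all genes passed).

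**Figure D5:**
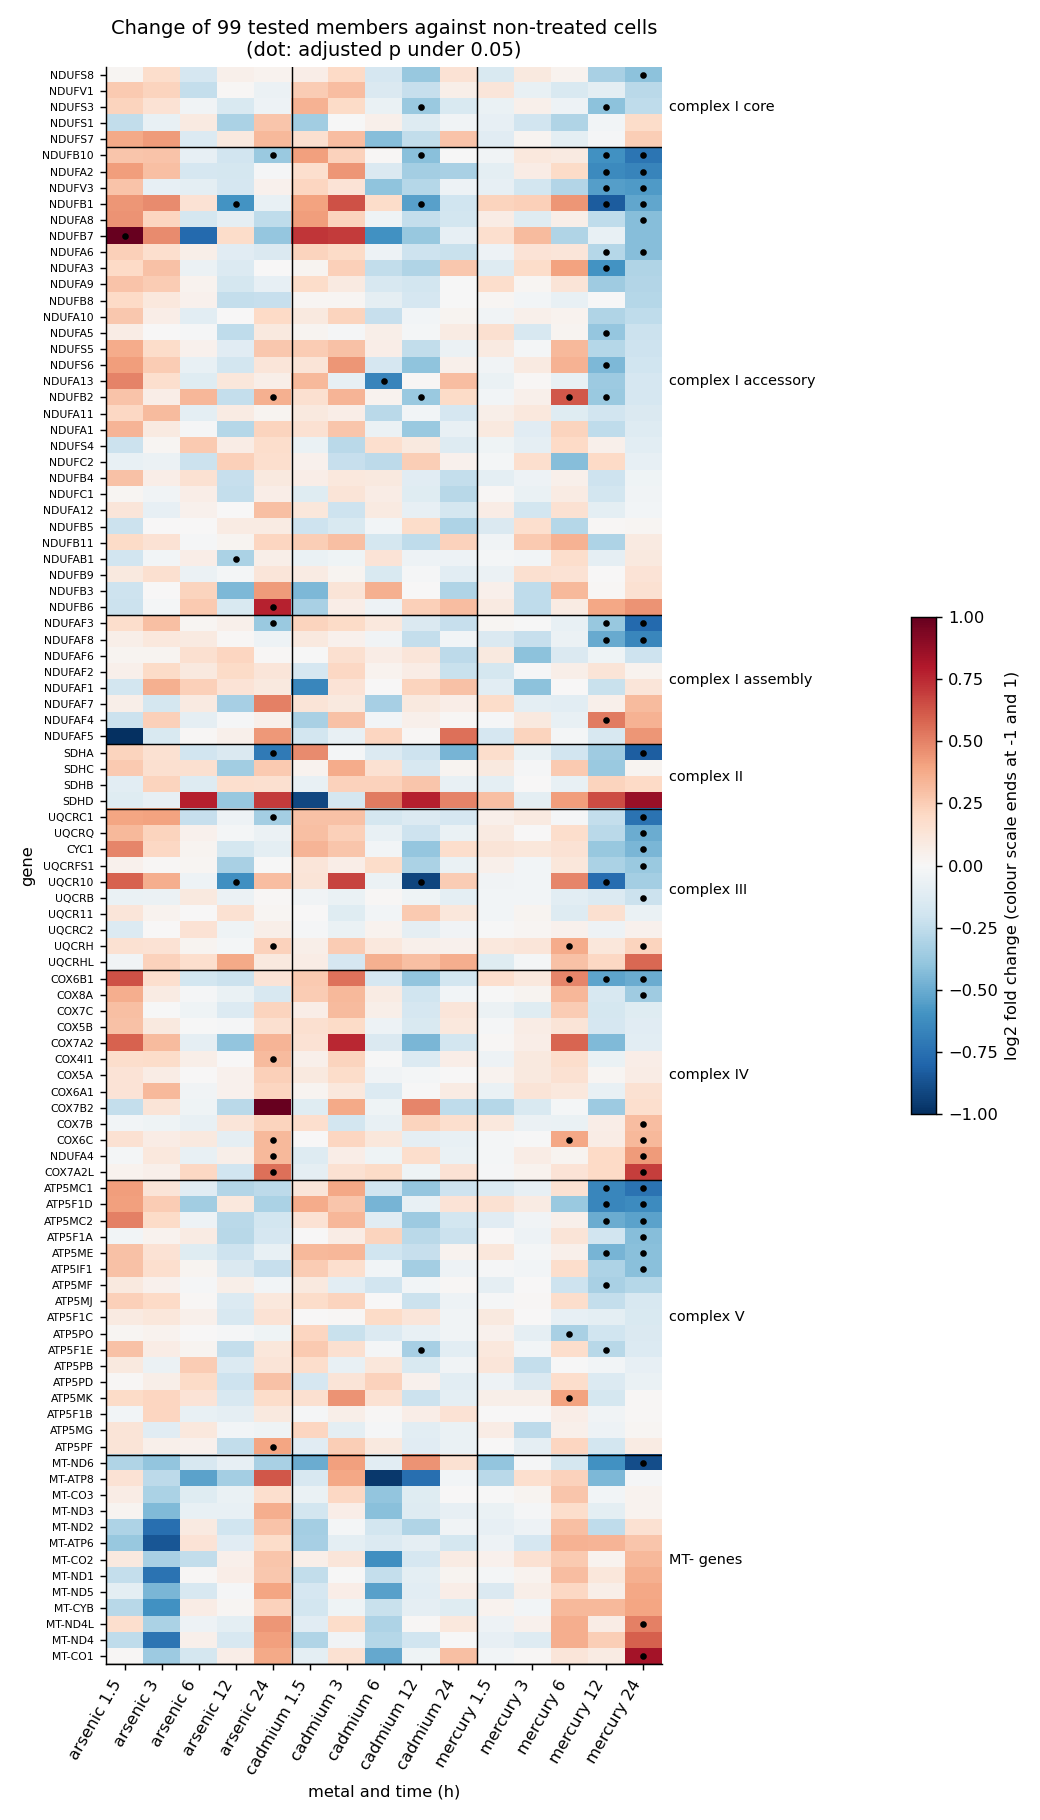
LFC (log2, colour, scale ends at -1 and 1) of 99 of the 100 tested members (rows, by complex and role, ordered by the mercury 24 h value) against time-matched non-treated cells, for each metal and time (h, columns); dots mark an adjusted p under 0.05. The mercury columns hold 21 called members at 12 h and 32 of all 100 tested members at 24 h. Over all genes 16% and 27.8% passed in these comparisons, so the member counts lie near those shares.

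Genes that make, assemble, or feed the chain were read from the same fit. After 24 h of mercury, 22 of 74 tested mitochondrial ribosomal protein genes were lower and 4 higher, with a median LFC of -0.15; over all genes 13.9% were lower and 13.9% higher. Of 19 TCA cycle enzymes 5 were lower and 0 higher, and of 49 other assembly factors 8 were lower and 3 higher. Of 17 mitochondrial chaperones and proteases 6 were higher and 3 lower, led by HSPA9, the mitochondrial HSP70, with an LFC of 1.04 (SE 0.08, adjusted p = 2.23e-18). Genes of mitochondrial transcription and RNA upkeep had 4 higher and 4 lower of 35, with TFB2M, a mitochondrial transcription factor, at 1.02 (adjusted p = 0.0128). The shares called lower among the assembly factors and the transcription and RNA upkeep genes lay near that of all genes. Cytochrome c and coenzyme Q synthesis had 3 and 3 of 14. Among 13 regulators of mitochondrial programmes 3 were higher and 1 lower. Among these was EPAS1, which encodes HIF-2α, with an LFC of 1.12 with mercury, 0.70 with arsenic, and 0.52 with cadmium. With arsenic 7 of the 74 mitochondrial ribosomal protein genes were lower and 1 higher (7.75% of all genes lower, 6.54% higher), a share near that of all genes for the falls, and with cadmium 1 was lower (0.632% of all genes lower).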

How the data were processed

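RNA of 1321N1 cells was sequenced from the 3′ end (QuantSeq FWD). The authors aligned reads to GRCh38 with STAR 2.7.9a (also named in the submitters' processing notes) and counted them by strand on exons of the GENCODE basic annotation in Union mode, which leaves out reads over more than 1 gene. The deposited values are raw counts, whole numbers without normalization, and include 92 spike-in features with 0 counts, which were left out. Groups were taken from the sample labels.

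All 60 libraries were fitted in edgeR 4.0.16 (R 4.3.3) with TMM normalization, filterByExpr (minimum count 10, total 15) and a coefficient per group. Each contrast was tested by quasi-likelihood with Benjamini-Hochberg adjustment over 12341 genes and called at an adjusted p under 0.05. The SE was derived from that test, as the absolute LFC divided by the square root of its F statistic. TMM factors lay between 0.934 and 1.03, with a common biological coefficient of variation of 0.120. CPM are counts scaled by the normalized library size. Library totals ranged from 2215276 to 4404609, and shares of reads carry counting error besides the SD.

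The members, the other gene lists, and the genes named were chosen with earlier results of these data known. Named were all MT- genes, in each role the member with the most counts and, for each metal, the largest changes at 24 h among members called in any comparison with non-treated cells, the isoform pairs, the SDH genes, ATP5IF1, and NDUFB7, and in each other list the called gene with the largest change at 24 h. Further called members are listed with their LFC, chosen after their values were seen. Their calls were not carried through the alternatives given below. The fit was tested on simulated data. Replicates of a group differed by a chi-square of at least 2.00 per degree of freedom, so none were copies. Same-numbered libraries of a metal and its control did not deviate together (median correlation -0.008 over 45 pairs, range -0.278 to 0.0837), and were not treated as paired. Promoter and 3′ end features came from RefSeq and GENCODE v44 on GRCh38. Alternatives were DESeq2 1.42.0, RLE factors, normalization without MT- genes, no filter, a stricter filter (10 counts in every library of a group and a mean of 20), a replicate block, only the 6 libraries compared, and leaving out each library. The genetic screens of the study were not analysed here, and some genes are not reported here.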

Additional observations from a re-analysis of the deposited data

Results flagged for a closer look

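For 3 members the effect at 24 h differed from that at 12 h by a test of the difference itself (edgeR quasi-likelihood, Benjamini-Hochberg over all genes tested). With arsenic, UQCR10 had an LFC of -0.61 at 12 h and 0.31 at 24 h, a difference of 0.92 (standard error 0.23, adjusted p = 0.0266). With cadmium, UQCR10 went from -0.91 to 0.25, a difference of 1.17 (standard error 0.24, adjusted p = 0.0084). With arsenic, COX7A2L went from -0.20 to 0.55, a difference of 0.75 (standard error 0.18, adjusted p = 0.0206), and ATP5PF from -0.24 to 0.40, a difference of 0.64 (standard error 0.15, adjusted p = 0.0138). All of these differences use the non-treated 12 h libraries, in which many nuclear members were high.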

How the results depend on the processing

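Of 58 values of named members carried through the alternatives, 20 kept their call under every one, among them UQCRC1, NDUFB10, NDUFAF8, NDUFAF3, SDHA, ATP5MC1, COX7A2L, NDUFA4, and MT-CO1 with 24 h of mercury and SDHA, COX7A2L, and COX4I1 with 24 h of arsenic. Of 770 alternative values, 137 kept their direction but lost the call, 111 of them where a library was left out. The 2 that reversed were UQCR10 with arsenic (LFC 0.20) and mercury (0.051) at 12 h, when the non-treated 6 h and 24 h libraries stood in for those at 12 h, a choice made after seeing the data. With that control the members called at 12 h were 7 with arsenic and 15 with cadmium.

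Without a filter on low counts, the members called were 13, 11, 2, and 5 with arsenic at 1.5, 3, 6, and 12 h, 5, 10, 9, and 15 with cadmium, and 1 and 18 with mercury at 1.5 and 6 h. At 24 h it gave 2 nuclear members lower and 10 MT- members with arsenic and 9 MT- members with mercury. With only the 6 libraries compared, the members called were 3 with arsenic at 6 h, 10, 4, 2, and 15 with cadmium at 1.5, 3, 6, and 12 h, and 2, 10, and 33 with mercury at 1.5, 6, and 12 h. At 24 h it gave 2 nuclear members lower and 7 MT- members with arsenic and 9 MT- members with mercury. DESeq2 called 2 members with arsenic at 1.5 h and 3 with cadmium at 3 h. The cause of these shifts was not tested. For the counts in this paragraph the share of all genes called in the same fit was not recorded. Whether they follow a shift of calls over all genes is therefore not known. With the replicate block, 1 member was called with arsenic at 6 h and 2 with cadmium at 3 h. Among the other counts the block moved none by over 1.5 times, and it removed the call of NDUFB6 with arsenic at 24 h. The replicate numbers do not pair the libraries.

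Leaving out 1 library at a time, the members called ranged from 0 to 15, 0 to 0, 0 to 1, and 0 to 3 with arsenic at 1.5, 3, 6, and 12 h, from 0 to 0, 0 to 10, 0 to 5, and 1 to 9 with cadmium, and from 0 to 0, 0 to 0, 2 to 15, and 7 to 21 with mercury. The lowest counts at 12 h with cadmium and mercury came without non-treated 12 h replicate 1. At 24 h, nuclear members higher and lower ranged from 2 to 10 and 1 to 2 with arsenic, 0 to 0 and 0 to 1 with cadmium, and 3 to 7 and 15 to 25 with mercury, and MT- members called from 0 to 1, 0 to 0, and 1 to 3. The fewest higher with arsenic (2) and mercury (3) came without replicate 1 of that metal or without non-treated 24 h replicate 2. The fewest lower with mercury (15) came without non-treated 24 h replicate 1. The 24 h difference in MT- share (percentage points) ranged from 0.752 to 1.36 with arsenic, -0.612 to 0.196 with cadmium, and 0.536 to 1.13 with mercury. Where 2 libraries of a group remained, their spread was shared with the other groups. The share of all genes called was not recorded for these counts with a library left out.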
